A study of Mus musculus with 27 samples.

Results

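H3K4me3 and H3K27me3, a mark of active promoters and a mark of Polycomb repression, lay together on 9213 of the 2472334 non-overlapping 1-kb bins of the 19 mouse autosomes (0.373%) in fPSCs at passage 10. A bin was counted when its mean over 10 windows of 100 bp reached 2 RPKM or more for both marks, with windows absent from a file taken as 0. RPKM is the number of reads scaled to the length of the window and to the depth of the library. The 92 bins with any 100-bp value over 100 RPKM in either mark were left out. Since the marks chose these bins, their levels are given as a description and were not tested, and the measures that the rule did not use were DNA methylation, DNA sequence, gene position and RNA. They are called bins with both marks here, and 3 other classes are set beside them. Bins with H3K4me3 only had 2 RPKM or more of H3K4me3 and less than 1 of H3K27me3 (42089 bins), bins with H3K27me3 only were the converse (15761 bins), and 2170944 bins were under 1 in both marks.

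fPSCs (formative pluripotent stem cells) are stabilized Epiblastoids, which are mESCs that formed epiblast-like structures in 3D culture. They were kept in Matrigel in N2B27 medium with Activin A, bFgf2 and XAV939, which lowers Wnt/β-catenin activity. Histone marks were measured by STAR ChIP-seq and DNA methylation by MethylC-seq, a whole-genome bisulfite method, both in fPSCs at passage 10. RNA-seq covered 2 libraries each of mESCs, 48 h EpiLCs and EpiSCs, 1 library each of Epiblastoids on days 2, 3 and 4 and of fPSCs at passage 1, 7 libraries of long-term fPSCs (P10, P20 and P30, and the lines CMT at P11, 46C at P24, BVSC at P14 and ROSAmTmG at P12) and 2 libraries of fPSCs at P10 that were derived from E5.5 and E6.5 epiblasts. All samples carry the genotype label WT. The mESCs grew without feeders on gelatin in N2B27 with PD035901, Chir99021 and hLIF, and the EpiSCs grew on Mitomycin C-treated MEFs in N2B27 with KSR, Activin A, bFGF2 and XAV939. The line used for ChIP-seq and MethylC-seq is not stated in the labels. Nothing in the labels says that libraries of 1 group came from separate cultures, so the p-values measure only the spread between these libraries. RNA levels are in FPKM, fragments scaled to transcript length and library depth. The 13 formative genes summed to between 967 and 1457 FPKM in the 7 fPSC libraries and to between 132 and 181 in mESCs. The 11 naïve genes summed to between 1527 and 1581 FPKM in mESCs and to between 55.2 and 84.2 in fPSCs.

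As background, H3K4me3 is written at CpG-rich promoters by SET1 and MLL complexes, and H3K27me3 is written by PRC2, the Polycomb complex that keeps developmental genes silent. Regions that carry both are called bivalent, and in pluripotent cells they are known from the promoters of lineage regulators that are silent but can be induced later. DNA methylation and H3K27me3 usually exclude each other at CpG-rich DNA. The ChIP-seq was made on bulk cells, so both marks on the same nucleosome, on the alleles of 1 cell or in different cells cannot be told apart, and fewer cells with a mark cannot be told apart from less of the mark per cell.

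Regions of 200 bp are shown for 4 of the 18 lineage regulators that start in a bin with both marks, since they show what kind of DNA carried both. Each is the stretch free of UTRs, within the run of bins at the gene, in which the smaller mark was highest. All are on the plus strand of mm9. Capitals mark CpG sites and runs of 8 or more G or C.
The first 2 lie by genes of the nervous system. Neurog2, a proneural bHLH factor, has its region at chr3:127335301-127335500, centred at -654 bp from the gene start, with 16.2 RPKM of H3K4me3, 14.2 of H3K27me3, 18 CpG and a methylated fraction of 0. Pax3, a paired-box factor of the neural crest, has its region in an intron at chr1:78184901-78185100, with 14.9 and 10.96 RPKM, no CpG and so no methylation value.
Neurog2: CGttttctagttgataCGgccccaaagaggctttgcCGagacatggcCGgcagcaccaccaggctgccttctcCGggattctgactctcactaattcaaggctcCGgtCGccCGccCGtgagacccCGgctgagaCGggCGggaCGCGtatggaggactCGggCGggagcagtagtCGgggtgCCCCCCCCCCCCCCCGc
Pax3: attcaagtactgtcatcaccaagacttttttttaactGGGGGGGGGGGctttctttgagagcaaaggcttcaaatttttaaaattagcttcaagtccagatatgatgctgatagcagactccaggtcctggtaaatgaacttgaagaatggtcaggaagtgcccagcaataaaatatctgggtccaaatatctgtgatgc
Nkx2-5, a homeobox factor of the heart, has its region at chr17:26981201-26981400, at -2790 bp from its start (9.95 and 7.74 RPKM, 13 CpG, methylation 0). Sox17, a factor of endoderm, has it at chr1:4486601-4486800, at -206 bp (14.9 and 6.77 RPKM, 6 CpG, methylation 0).
Nkx2-5: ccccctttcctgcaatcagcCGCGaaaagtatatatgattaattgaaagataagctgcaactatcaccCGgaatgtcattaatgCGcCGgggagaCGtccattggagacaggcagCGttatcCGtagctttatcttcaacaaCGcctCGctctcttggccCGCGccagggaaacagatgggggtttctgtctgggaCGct
Sox17: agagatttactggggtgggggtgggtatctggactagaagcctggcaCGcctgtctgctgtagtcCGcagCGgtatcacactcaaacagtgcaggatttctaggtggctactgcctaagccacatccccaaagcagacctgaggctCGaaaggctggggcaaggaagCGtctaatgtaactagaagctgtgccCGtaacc
For contrast, a region in a bin with H3K4me3 only lies over exon sequence of Psmb4, a proteasome subunit, at chr3:94690001-94690200 (26.7 RPKM of H3K4me3, 0 of H3K27me3, 3 CpG, methylation 0.88). A region in a bin with H3K27me3 only lies in an intron of Entpd2, near the start of Npdc1, at chr2:25254301-25254500 (7.09 RPKM of H3K27me3, 1.25 of H3K4me3, no CpG).
Psmb4: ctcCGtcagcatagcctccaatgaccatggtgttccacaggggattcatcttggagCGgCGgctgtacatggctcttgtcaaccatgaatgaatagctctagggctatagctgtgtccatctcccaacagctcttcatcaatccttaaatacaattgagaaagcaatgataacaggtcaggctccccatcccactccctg
Npdc1: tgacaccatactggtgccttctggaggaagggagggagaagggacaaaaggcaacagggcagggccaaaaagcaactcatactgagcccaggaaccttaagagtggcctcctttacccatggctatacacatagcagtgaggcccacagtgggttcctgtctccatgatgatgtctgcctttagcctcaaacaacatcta
These stretches do not share 1 base composition: GC content ran from 41.0% (Pax3) to 67% (Neurog2). Runs of G or C were the longest in Neurog2 (15 C) and Pax3 (11 G).

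The marks were read at a known depth. A single read was worth 1.24 RPKM per 100 bp for H3K4me3 and 0.645 for H3K27me3, which corresponds to 8.04 M and 15.5 M reads, since 99.99% or more of the values in either file were whole multiples within 0.0051 RPKM. The labels list 2 replicates for each mark and for MethylC-seq, but 1 file each was used, with 1 value per window, so the replicate error of the marks and of methylation is unknown. Bins with both marks held a median of 29.99 reads of H3K4me3 and 52.98 of H3K27me3. The least covered ones held 17 and 32 reads, and the exact 95% Poisson intervals of such counts, which cover counting error only, span 1.23 to 3.39 RPKM and 1.41 to 2.91 RPKM. Near the limit, 328 bins had their smaller mark between 2.0 and 2.1 RPKM and 1100 bins outside the class had it between 1.9 and 2.0. Values move in steps of whole reads, and the lowest H3K4me3 in the class was 2.11 RPKM. No bin with H3K4me3 as its smaller mark could thus lie between 2.0 and 2.1, and the 2 counts are not comparable. The bin just inside, chr11:60323001-60324000, had 2.74 RPKM of H3K4me3 and 2.06 of H3K27me3, and the bin just outside, chr1:34516001-34517000, had 6.59 and 2.00 (1.999 before rounding).

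Among the chosen bins the median was 3.73 RPKM of H3K4me3 and 3.42 of H3K27me3, and 57.2% had more H3K4me3 than H3K27me3. The marks also met at a finer scale: 9189 bins (99.7%) held at least 1 window of 100 bp with 2 RPKM or more of both, and the median bin held 5 such windows of 10. Of all bins with 2 RPKM or more of H3K4me3, 15.7% had both marks, and of those with 2 RPKM or more of H3K27me3, 30.1% did. The bins were uneven over the chromosomes, from 0.210% of bins on chromosome 16 to 0.684% on chromosome 11. Over the 9213 bins the log2 levels of the marks had a Pearson r of 0.22, a description only, because bins share libraries and neighbours.

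DNA methylation, which the rule did not use, separated the bins with both marks from those with H3K27me3 only. Their median methylated fraction was 0.229 (95% interval of the median over bins 0.217 to 0.241, quartiles 0.044 and 0.593), against 0.384 in bins with H3K4me3 only, 0.896 with H3K27me3 only and 0.923 in bins low in both. A fraction under 0.2 was found in 4349 of the 9162 bins with a value (47.5%), against 35.4%, 0.512% and 0.602% of the other classes. At the other end, 1242 bins with both marks (13.6%) were at 0.8 or more. Adjacent bins are not independent and the file gives no coverage, so no test was made between the classes and the interval covers the spread over bins only.

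**Figure D1:**
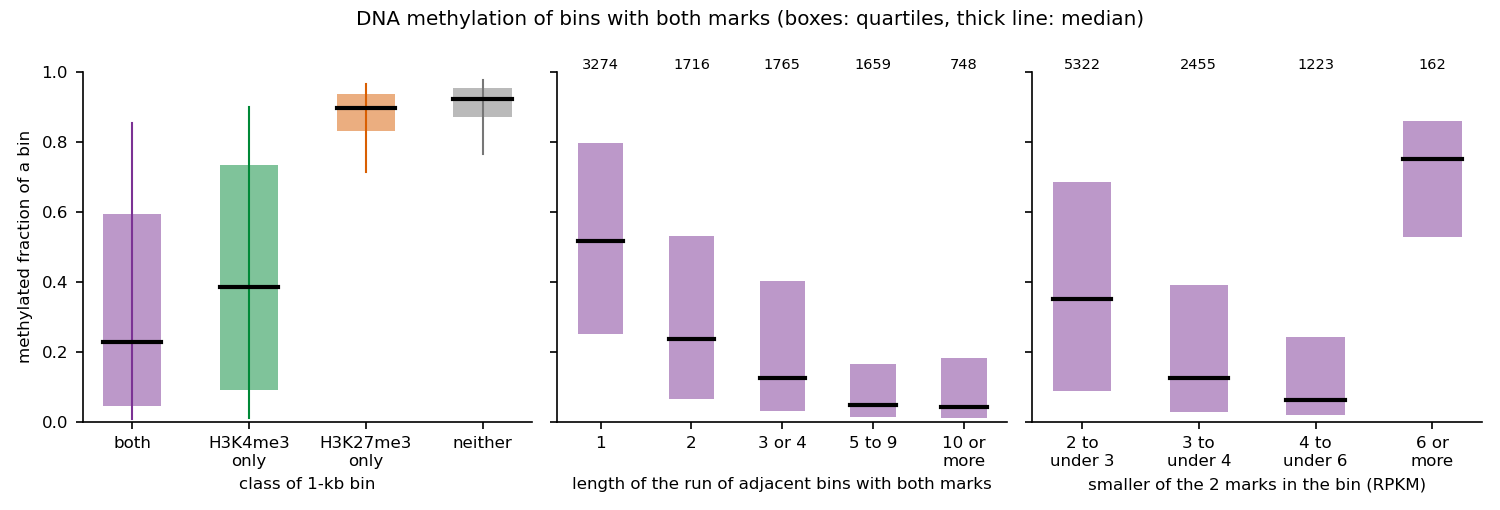
Methylated fraction of 1-kb bins in fPSCs at P10 by class (left; thin lines, 10th to 90th percentile), by the length of the run of adjacent bins with both marks (middle) and by the smaller of the 2 marks (right). Boxes span the quartiles, thick lines are medians and numbers above are bins with a value; the median was 0.518 in single bins and 0.041 in runs of 10 or more, and 0.753 where the smaller mark was 6 RPKM or more.

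CpG density ran with the methylation of these bins. The median was 24 CpG per kb in bins with both marks, 18 with H3K4me3 only, 9 with H3K27me3 only and 6 in bins low in both. Of the bins with both marks, 18.8% were island-like (50% GC or more and an observed-to-expected CpG ratio of at least 0.6), near the 20.4% of bins with H3K4me3 only and above the 0.241% of those with H3K27me3 only. From the lowest to the highest CpG density the median methylation of bins with both marks went from 0.785 (0 to 5 CpG) through 0.608 (6 to 15), 0.278 (16 to 30) and 0.070 (31 to 60) to 0.039 (over 60). At the same density of 16 to 30 CpG it was 0.393 with H3K4me3 only, 0.900 with H3K27me3 only and 0.931 in bins low in both. In each of the 5 bands the median was lower in bins with both marks than in those with H3K27me3 only, and over 60 CpG it was higher than in those with H3K4me3 only (0.013).

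Bins with both marks lay in 5019 runs of adjacent bins. Single bins made up 3302 runs and had a median methylation of 0.518, bins in runs of 2 had 0.237, of 3 or 4 had 0.125, of 5 to 9 had 0.048 and of 10 or more had 0.041. A gene start lay in 7.42% of single bins and in 32 of the 54 runs of 10 or more (59.3%). Methylation was higher outside the runs, with a median of 0.355 in the first bin next to runs of 5 or more and of 0.850 at 10 kb.

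Most of the longest runs had little methylation and a few had much. Of the 54 runs of 10 or more bins, 49 had a mean methylation under 0.2 and 5 had 0.5 or more, with none between. A gene start lay in 30 of the 49. The lowly methylated group included Pax7 (23 bins, chr4:139372001-139395000, 4.19 RPKM of H3K4me3, 4.30 of H3K27me3, methylation 0.089), which marks muscle stem cells. Nkx2-3, a homeobox factor of gut and spleen, had 21 bins (chr19:43672001-43693000, methylation 0.089). Dlx1, a factor of forebrain interneurons, and Pax6, the eye and forebrain regulator, had 19 bins each, with methylation of 0.080 and 0.017. Pax3 and Pax2 had 17 each, with 0.031 and 0.080.

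The 5 highly methylated runs lie on chromosomes 7, 8 and 11, and 4 of them were among the 10 longest. The longest run of all covered 51 bins over Sfi1, a centrosome gene, at chr11:3049001-3100000, with 29.7 RPKM of H3K4me3, 18.4 of H3K27me3 and a methylation of 0.733. Next to it, chr11:3027001-3045000 held 18 bins with 22.03 and 11.4 RPKM and a methylation of 0.824. 1600014C10Rik on chromosome 7 had 19 bins with a methylation of 0.647. The run chr8:19758001-19775000 had 17 bins at 0.816, and all 17 were made mostly of 31-base words that occur more than once in the genome, with a median of 6 copies.

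Bins with high levels of both marks were not all lowly methylated. Median methylation was 0.352 where the smaller mark was 2 to under 3 RPKM (5348 bins), 0.124 at 3 to under 4 (2470), 0.063 at 4 to under 6 (1230) and 0.753 in the 165 bins at 6 or more. In these 165 bins 20.6% were mostly repeated words, against 5.13% of all bins with both marks and 47.3% of the bins left out for a value over 100. Of the 10 bins with the highest smaller mark, 4 lie within chr1:24618001-24623000, by Gm10925 and Gm10222, and consist mostly of words that also occur in the mitochondrial genome. The other 6 lie in or beside Sfi1, and at most 16% of their words are repeated. Repeated words also ran with methylation, with 27.4% of bins at 0.8 or more and 0.115% of bins under 0.2 being mostly repeated. Without such bins the median methylation was 0.200. No input library was used here, and the part of copy number in these signals was not tested.

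Bins with both marks also held long runs of G or C more often than the other classes, a measure that was chosen after the data were seen. A run of 8 or more was in 20.6% of them, against 14.7% with H3K4me3 only, 7.98% with H3K27me3 only and 5.504% of bins low in both. For runs of 12 or more the shares were 8.51%, 5.65%, 2.202% and 1.47%. Both marks stood up at the run itself: over 49047 windows of 100 bp with a run of 12 or more, mean H3K4me3 was 1.76 RPKM, against 0.815 and 0.723 in the windows before and after, and mean H3K27me3 was 1.04, against 0.452 and 0.467. Within bins with both marks (915 windows) the means were 12.1 against 4.43 and 3.53 for H3K4me3 and 8.72 against 3.30 and 2.95 for H3K27me3. These bins were chosen by the same values, and a high window helps its own bin to be chosen. The means within them are thus a description only. The 15 C of the Neurog2 region and the 11 G of the Pax3 region above are runs of 8 or more. Leaving out every bin with a run of 8 or more kept 7317 bins, with a median methylation of 0.235. What these runs contribute to the signal was not tested.

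**Figure D2:**
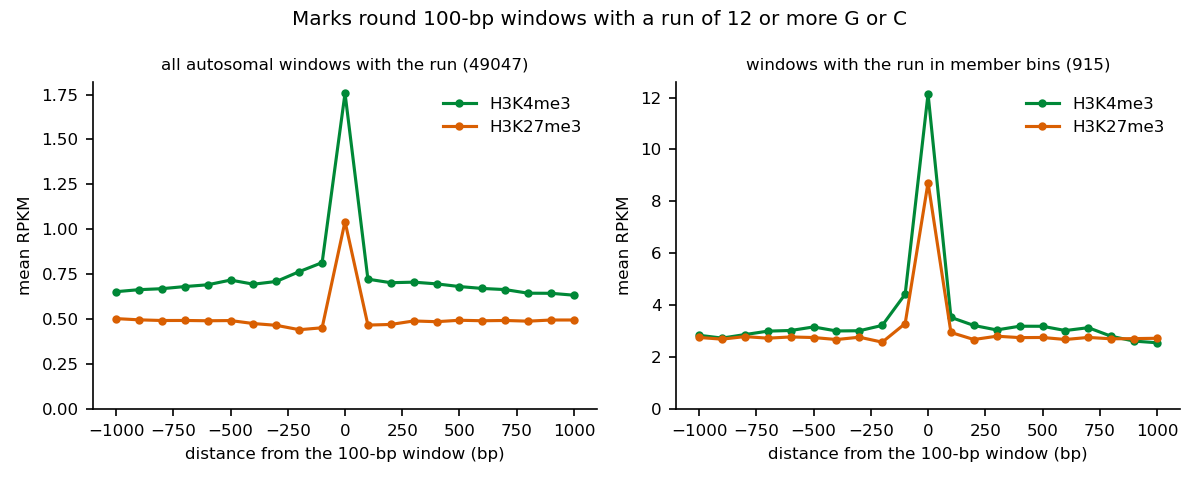
Mean H3K4me3 and H3K27me3 (RPKM, vertical axis) by distance in bp from 100-bp windows that hold a run of 12 or more G or C, for all such autosomal windows (left, 49047) and for those in bins with both marks (right, 915). Both marks peak in the window itself and are back near the level of the surroundings 100 to 200 bp away. The bins on the right were chosen by these same marks, so that panel is a description only.

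Gene starts were present in 858 bins with both marks (9.31%, 95% Wilson interval 8.74 to 9.92%), against 19.4% of bins with H3K4me3 only and 0.971% with H3K27me3 only. The rest lay over other exons (26.2%), in introns only (23.3%) or outside protein-coding genes (41.1%). Most were still near genes, with 58.3% within 5 kb of a start and 11.2% farther than 50 kb. Bins at gene starts had a median methylation of 0.109 and 49 CpG per kb, and bins outside genes had 0.293 and 18.

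Of the 21150 protein-coding autosomal genes with 1 position in the annotation, 871 (4.12%) start in a bin with both marks, 8922 (42.2%) in one with H3K4me3 only and 155 in one with H3K27me3 only. Median methylation at these starts was 0.107, 0.038 and 0.850. The first 2 classes are compared next. The stretch around a start in which every 1-kb bin was under 0.2 had a median of 1 kb in both of these classes. Its quartiles were 0 and 3 kb with both marks and 1 and 2 kb with H3K4me3 only. Wide stretches were more frequent with both marks: 146 of 871 starts (16.8%) lay in one of at least 5 kb, against 1.502% with H3K4me3 only. Mean methylation 2 kb upstream was 0.624 at starts with both marks and 0.820 at those with H3K4me3 only. The marks had different shapes. At starts with both marks mean H3K27me3 was 2.43 RPKM at the start and 3.54 at 2 kb downstream, and mean H3K4me3 was 4.44 at the start and 2.24 there. At starts with H3K4me3 only, mean H3K4me3 reached 9.04 RPKM at 600 bp downstream and was 1.60 at 2 kb.

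**Figure D3:**
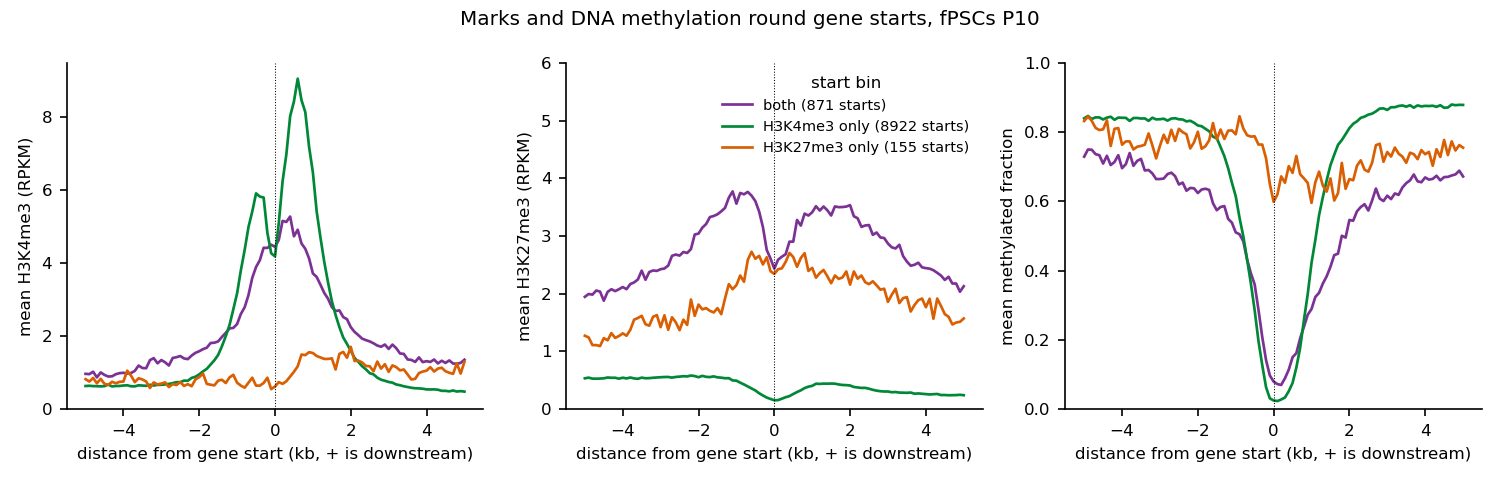
Mean H3K4me3, H3K27me3 (RPKM) and methylated fraction in 100-bp windows from 5 kb upstream to 5 kb downstream of gene starts, by the class of the start bin (871, 8922 and 155 starts); bins with a value over 100 RPKM are left out. At starts with both marks H3K27me3 flanks the start at over 3 RPKM on both sides and methylation is 0.079 at the start.

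Families of developmental transcription factors were the ones most often found at these starts. Gene families were grouped by symbol, with 4.12% of all genes as the background. Of the Hox genes, which set position along the body axis, 30 of 38 start in a bin with both marks and all 38 start within 1 kb of one. Among the other homeobox families the counts were 10 of 14 for Nkx and 9 of 12 for Lhx, and among the paired-box Pax genes 7 of 9. The GATA factors, regulators of blood, heart and endoderm, had 4 of 5, and lineage bHLH factors such as Neurog1 and Hand2 had 21 of 45. Sox and T-box genes had 6 of 16 each and forkhead genes 10 of 40. Irx and Meis (2 of 9) were lower, and none of the 9 Zic and Gli genes had both marks, 4 of them starting in bins with H3K4me3 only.

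Families outside transcription factors were found too. Wnt ligands had 7 of 19, potassium channels 20 of 90, collagens 10 of 42 and amine receptors 7 of 29. Delta ligands of the Notch pathway, Dll1 and Dll4, were the 2 of 10 Notch genes. Among genes used in every cell, 0 of 78 ribosomal protein genes and 0 of 42 complex I genes start in such a bin, and the only one of 36 proteasome genes was Psmb8, an immunoproteasome subunit. The large clustered families of sensory and skin genes were nearly absent, with 1 of 1086 olfactory receptors (Olfr94) and none of 324 vomeronasal receptors, 49 keratins and 41 beta-defensins.

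**Figure D4:**
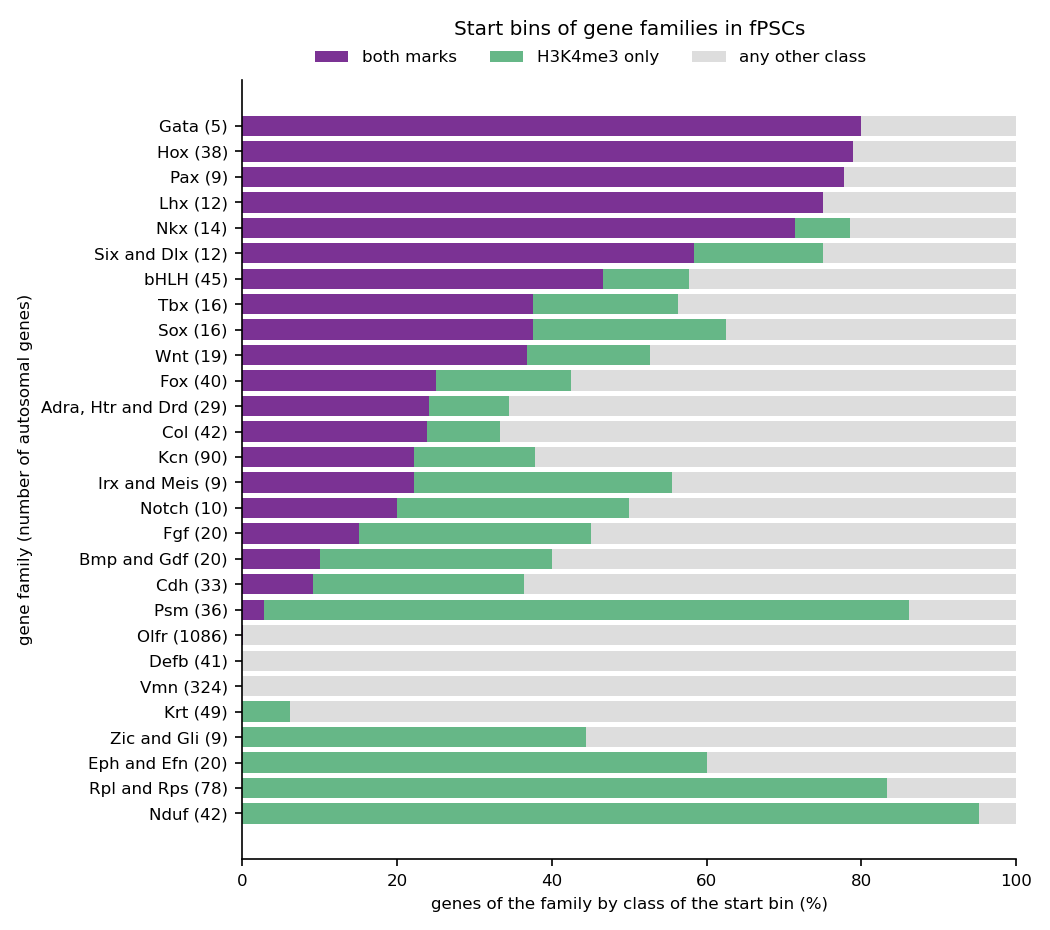
Share of genes of each family (horizontal axis, %) whose start lies in a bin with both marks, with H3K4me3 only or of any other class; numbers of autosomal genes are in brackets. Gata, Hox and Pax reach 77.8 to 80.0% with both marks, and ribosomal protein and complex I genes have none.

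Both marks covered much of the 4 Hox clusters. In Hoxa (chr6:52105366-52210874) 66 of 106 bins had both, in Hoxc (chr15:102751534-102867274) 74 of 117 and in Hoxd (chr2:74506367-74603200) 61 of 98, while Hoxb (chr11:96055630-96229570) had 81 of 175. H3K27me3 alone was wider still, at 2 RPKM or more in 102, 116, 93 and 159 bins. The chosen bins in the clusters had median methylation between 0.046 and 0.067. RNA was low: the highest value of any Hox gene in any of the 7 fPSC libraries was 0.797 FPKM in Hoxd and at most 0.201 in the other clusters. In mESCs the highest was Hoxc12 with 8.55 FPKM.

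Of 30 lineage regulators listed for the 3 germ layers, 29 have a position in the annotation used, and 18 start in a bin with both marks. Among them are regulators of ectoderm (Pax6, Pax3, Pax2, Lhx5, Neurog2, Msx2), mesoderm (Mesp1, Mixl1, Hand1, Nkx2-5, Isl1, Foxf1), endoderm (Foxa2, Sox17, Gata4, Pdx1) and trophectoderm and hindgut (Cdx2). The start bin of Sox17 had 8.46 RPKM of H3K4me3 and 4.45 of H3K27me3, and that of Foxf1 had 2.99 and 2.06. Methylation was at or under 0.054 in all but Mixl1 (0.260), Gata4 (0.313) and Mesp1 (0.323). Of the other 11, Eomes and Tbx6 had H3K4me3 only, and 9 lay between the limits. Some of the 9 were near the threshold, such as T (4.35 and 1.74 RPKM) and Gata6 (6.72 and 1.93). Nr4a2 (1.99 and 0), Twist1 (1.49 and 0.321) and Tbx5 (0.621 and 1.35) reached it for neither mark. All 13 formative genes, such as Otx2, Fgf5 and Dnmt3b, and all 4 core pluripotency genes, Pou5f1 among them, start in bins with H3K4me3 only. The authors had displayed part of the lineage list, such as Pax6, Foxa2 and Lhx5, with both marks in fPSCs. They had displayed part of the formative list, such as Otx2, Fgf5 and Zic5, with high H3K4me3 and low H3K27me3. The difference between the 2 lists is thus a description and lends no support. Of the 10 naïve genes with a position, Tbx3 alone had both marks, and of the 10 primed or streak genes Foxa2, Mixl1 and Sfrp1 did. None of 19 housekeeping, 14 germline and 18 Polycomb and reader genes had both marks.

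Starts with both marks held fewer ETS motifs than starts with H3K4me3 only at the same CpG density. The letters CCGGAAG, searched on both strands, were in 13.8% of 419 start bins with both marks and 31 to 60 CpG, in 33.02% of 3452 such bins with H3K4me3 only and in 26.9% of all 5123 start bins at that density. The NRF1 core TGCGCA was in 17.4%, 24.4% and 22.9%, the SP/KLF box GGGCGG in 80.2%, 84.1% and 82.7%, and the CCAAT box in 66.8%, 74.6% and 72.7%. A match describes the letters and not binding, and no test was made.

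RNA from genes that start in bins with both marks was low in fPSCs. Of the 806 genes found in the FPKM table, 131 (16.3%) had a mean of 1 FPKM or more over the 7 fPSC libraries and their median was 0.082 FPKM, against 88.0% and 9.80 FPKM for the 8386 genes with H3K4me3 only and 11.9% and 0.018 FPKM for the 134 with H3K27me3 only. The share was 20.2% at 2 to under 2.5 RPKM of H3K27me3 at the start (252 genes), 15.8% and 15.0% in the next bands, and 11.1% at 4 RPKM or more (126 genes). With H3K4me3 it went the other way, from 12.3% at 2 to under 3 RPKM to 24.5% at 6 or more. In runs of 5 or more bins 10.1% of 138 genes reached 1 FPKM, and in single bins 21.5% of 233.

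The same 806 genes were detected most often in EpiSCs. At 1 FPKM or more there were 30.5% and 29.8% in the EpiSC libraries, 23.3% and 19.4% in mESCs, 18.1% and 18.0% in EpiLCs, and from 13.5% (P30) to 19.2% (46C) in the 7 fPSC libraries. No fPSC library reached either EpiSC library, and 46C lay just under the lower mESC library. Epiblastoids had 20.1% on day 2, 18.4% on day 3 and 21.8% on day 4, fPSCs at P1 had 17.6%, and the fPSCs from E5.5 and E6.5 epiblasts had 16.6% and 18.2%. For genes with H3K4me3 only the share was between 85.0% and 89.4% in all 19 libraries. Fibroblast markers stood apart in the EpiSC libraries, which grew on MEFs: 15 such genes summed to between 1965 and 2317 FPKM there, with 12 or 13 at 1 FPKM or more, against 38.1 to 80.5 FPKM in fPSCs (3 or 4 genes) and 188 to 272 in mESCs (2 to 4 genes). S100a4 was listed at 0 in all 7 fPSC libraries, and none of the 15 was at 0 in EpiSCs. Their part in the EpiSC values was not tested.

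**Figure D5:**
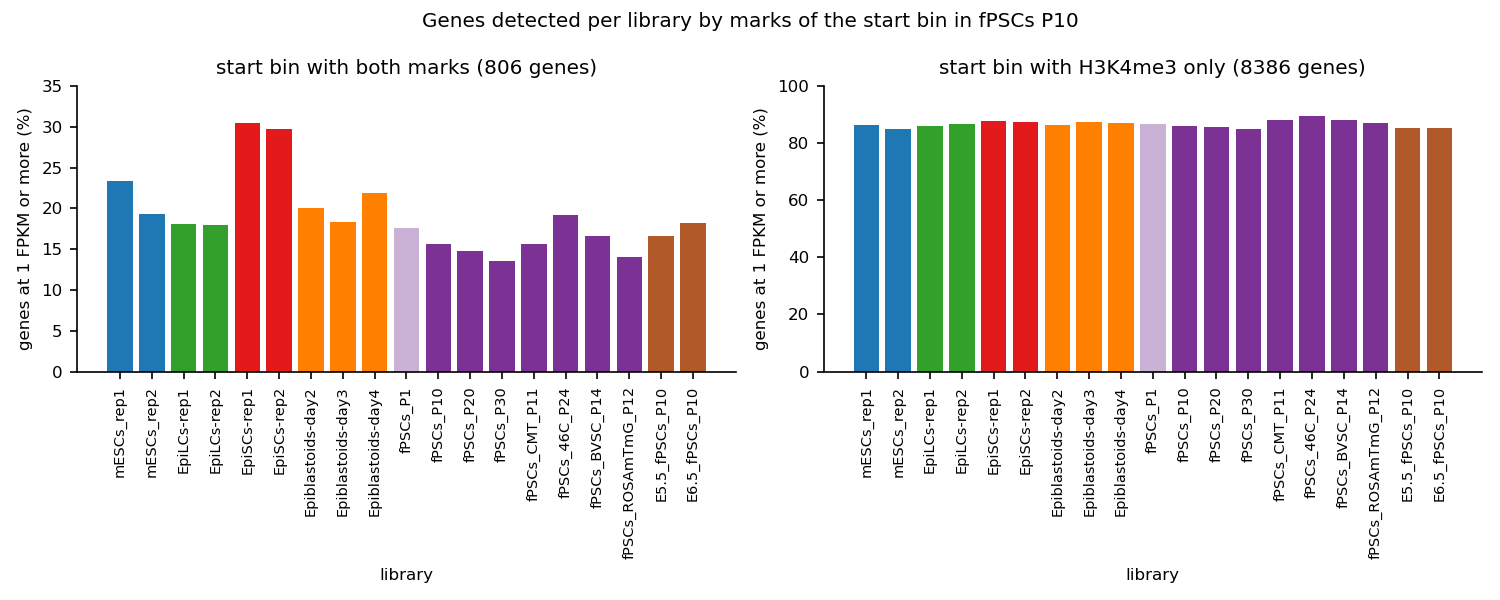
Share of genes at 1 FPKM or more (%, vertical axes start at 0 and end at 35 and 100) in each of the 19 RNA libraries, for 806 genes that start in a bin with both marks (left) and 8386 that start in one with H3K4me3 only (right). Bars are single libraries coloured by group; the 2 EpiSC libraries stand at 30.5 and 29.8% on the left and within the range of the others on the right.

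Groups were compared with limma on log2(FPKM + 1), on which changes between low values come out smaller than they are. The fit held 12513 genes that reached 1 FPKM in 2 or more of 13 libraries. Calls required a fold of 1.5 or more with an adjusted p (Benjamini-Hochberg) under 0.05. The filter kept 310 of the 806 genes, and a gene silent in fPSCs could pass it only through another group, so the counts over those 310 lean towards the other groups by construction. Counts without the filter, over 799 of the 806 genes (7 were at 0 in every library fitted), are given first. The 3 comparisons share groups and are not independent of each other.

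Between fPSCs and mESCs, 177 of the 799 genes were called without the filter (41 higher and 136 lower in fPSCs), 22.2% against 26.4% of all 19182 genes (10.6% higher and 15.8% lower). With the filter there were 158 (43 higher, 115 lower), where 40.3% of all tested genes were called, 17.3% higher and 23.0% lower. Between EpiSCs and fPSCs, 209 of 799 were called (199 higher and 10 lower in EpiSCs), 26.2% against 19.9% of all genes (12.7% higher and 7.24% lower). With the filter there were 172 (160 higher, 12 lower), with a background of 32.3%, 19.0% higher and 13.3% lower. Between EpiSCs and mESCs, 258 of 799 were called (168 higher and 90 lower in EpiSCs), 32.3% against 31.6% (15.4% higher and 16.2% lower). With the filter there were 211 (136 higher, 75 lower), with a background of 47.8%, 23.1% and 24.7%. Over the 799 genes the median log2 change was -0.0005 in fPSCs against mESCs (all 19182 genes -0.0007). It was 0.088 in EpiSCs against fPSCs (0) and 0.051 in EpiSCs against mESCs (-3.5e-05). Over the 310 genes, which lean towards the other groups by construction, it was -0.19 in fPSCs against mESCs (all tested genes -0.04). There it was 0.81 in EpiSCs against fPSCs (-0.02) and 0.49 in EpiSCs against mESCs (-0.09). The results with the filter rested on single libraries in part, and the genes that pass it change with the libraries. In fPSCs against mESCs the median became 0.05 and -0.09 without mESC replicate 1 or 2. In EpiSCs against fPSCs it became 0.52 and 0.50 without EpiSC replicate 1 or 2. In EpiSCs against mESCs it became 0.22 and 0.17 without these, and 0.94 and 0.56 without mESC replicate 1 or 2.

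The 5 genes that rose most in fPSCs over mESCs were Foxa2, Cyp26a1, Lhx1, Mlf1 and Mixl1, and Foxa2, Lhx1 and Mixl1 are regulators of mesendoderm. Foxa2, a pioneer factor of endoderm and node, had 0 and 0.0404 FPKM in mESCs and between 5.24 and 81.9 in the 7 fPSC libraries (median 30.8). Its log2 change was 4.59 (standard error 0.72, limma adjusted p = 0.0002). Mixl1, a homeobox factor of the primitive streak, had 0.350 and 0.345 FPKM in mESCs and between 1.71 and 29.95 in fPSCs (median 6.63), a change of 2.64 (standard error 0.65, limma adjusted p = 0.00522). Rises were named only where every fPSC library lay above both mESC libraries.

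Cyp26a1, which degrades retinoic acid, was listed at 0 in both mESC libraries and had between 1.67 and 96.4 FPKM in fPSCs (median 11.7, limma adjusted p = 0.0124). Lhx1, a LIM homeobox factor of the organizer, had 0 and 0.00613 FPKM against 1.32 to 86.5 (median 7.11, limma adjusted p = 0.0223). Both calls were lost when either mESC library was left out, and 46C was the highest fPSC library for both. Mlf1 had 0.162 and 0.193 FPKM in mESCs and 2.70 to 16.4 in fPSCs (median 5.35, log2 change 2.65, limma adjusted p = 0.00029).

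The genes with both marks that fell most from mESCs to fPSCs under the same rule have varied roles. Fabp3, a fatty acid binding protein, went from 173 and 319 FPKM in mESCs to between 2.03 and 4.92 in fPSCs (median 3.56), a log2 change of -5.77 (standard error 0.32, limma adjusted p = 1.15e-08). Tbx3, a T-box factor of naïve cells, went from 47.4 and 29.3 FPKM to between 0 and 0.138 (median 0.0952), a change of -5.15 (standard error 0.15, limma adjusted p = 2.34e-11). Falls were named only where the libraries of the groups did not overlap. Tbx3 and Aqp3 passed the filter through the mESC libraries alone, and they stayed called when no filter was used. Aqp3, a channel for water and glycerol, Bcl3, an NF-κB cofactor, and Ckb, the brain-type creatine kinase, changed by -5.48, -5.30 and -5.11. Ckb had 845 and 521 FPKM in mESCs, 13.1 to 24.5 in fPSCs and 366 and 416 in EpiSCs. Its start bin had 7.22 RPKM of H3K4me3 and 3.42 of H3K27me3 in fPSCs.

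For EpiSCs over fPSCs, the 5 largest rises named among genes with both marks were those of Col1a1, Wnt7b, Tgfbi, Gsn and Hand1. Col1a1, the main chain of type I collagen and one of the 15 fibroblast markers, had 111 and 153 FPKM in EpiSCs and between 0.0485 and 0.465 in fPSCs (median 0.148), a log2 change of 6.81 (standard error 0.16, limma adjusted p = 1.13e-11). Wnt7b, a Wnt ligand, had 74.2 and 124 FPKM against 0.0529 to 0.228 (median 0.124), a change of 6.41 (standard error 0.17, limma adjusted p = 2.94e-11). Tgfbi, a matrix protein, Gsn, which severs actin filaments, and Hand1, a bHLH factor of heart and trophoblast, changed by 6.40, 5.53 and 5.35. The rule that named these 5 genes required both EpiSC libraries to lie above all 7 fPSC libraries. Col1a1, Wnt7b and Hand1 passed the filter through the EpiSC libraries alone, and they stayed called when no filter was used. Without the filter, 13 of the 15 fibroblast markers were called higher in EpiSCs than in fPSCs and 0 lower by limma, beside which these values stand.

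Of the 18 lineage regulators with both marks, all fitted without the filter, 3 were called higher and 1 lower in EpiSCs than in fPSCs, where 12.7% of all genes were higher and 7.24% lower. Hand1 and Cdx2 are among the 3, and both passed the filter through the EpiSC libraries alone. Cdx2 had 1.66 and 2.196 FPKM in EpiSCs and 0.0298 to 0.239 in fPSCs, a log2 change of 1.36 with the filter (limma adjusted p = 1.03e-06). The naming rule for falls gave 3 genes with both marks. They were called lower in EpiSCs than in fPSCs without overlap of libraries and averaged at least 5 FPKM in either group. The share of all genes that meet this rule is not given here, so the number is not read as few or many. Mixl1 had 0.712 and 1.19 FPKM in EpiSCs and fell by 2.12 on the log2 scale (limma adjusted p = 0.0235), and Thpo, thrombopoietin, fell by 1.27 (limma adjusted p = 0.0164). Both calls were lost when either EpiSC library was left out. Zrsr1, an imprinted splicing factor gene inside an intron of Commd1, had 3.69 and 3.88 FPKM in EpiSCs and 6.19 to 11.2 in fPSCs, a fall of 0.99 (limma adjusted p = 0.00247).

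In EpiSCs against mESCs the largest rises named among genes with both marks were those of Col1a1, Wnt7b, Tgfbi and Hand1. Their log2 changes were 6.81, 6.2, 5.65 and 5.34. Slc25a24, a mitochondrial carrier, had 37.4 FPKM in each EpiSC library, 0.136 and 0.0542 in mESCs and 2.00 to 4.60 in fPSCs, and changed by 5.13 (limma adjusted p = 8.43e-09). The genes with both marks named for the largest fall were Aqp3, Fabp3, Notum, which inactivates Wnt proteins, Tbx3 and Grin1, a glutamate receptor subunit. These changed by -5.23, -5.06, -4.98, -4.80 and -4.78 on the log2 scale. Notum had 33.7 and 34.0 FPKM in mESCs and at most 0.113 in EpiSCs and in fPSCs. Aqp3, Notum and Tbx3 passed the filter through mESCs alone, and Col1a1, Wnt7b and Hand1 through EpiSCs alone.

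A few genes with both marks at the start were well expressed in fPSCs. Those with the highest means were Ass1, of arginine synthesis, Fam195b, Tpm1, a tropomyosin, Foxa2 and Pfdn4, a prefoldin subunit. Ass1 had 21.1 to 61.4 FPKM in fPSCs (median 35.4), 280 and 289 in mESCs, 77.5 and 60.8 in EpiLCs and 21.7 and 32.8 in EpiSCs. Its start bin had 4.98 RPKM of H3K4me3, 2.38 of H3K27me3 and a methylation of 0.040. Pfdn4 had 10.996 to 46.7 FPKM in fPSCs (median 37.4), and neither comparison with fPSCs called it (limma adjusted p = 0.609 against mESCs and 0.0612 against EpiSCs). Tpm1 had 22.1 to 50.03 FPKM in fPSCs and 402 and 452 in EpiSCs, a log2 change of 3.64 (limma adjusted p = 1.85e-07).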

How the data were processed

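Samples were grouped by the labels alone. Per the labels and the methods, the authors made the STAR ChIP-seq libraries after MNase digestion, trimmed reads with Trim Galore, aligned them to mm9 with Bowtie2 2.2.2, removed multi-mapped and duplicate reads, and deposited RPKM per 100 bp. The labels list 2 replicates per mark and for MethylC-seq, and the methods say that ChIP-seq replicates were combined for later steps. Each file is listed under replicate 1, and whether it holds 1 replicate or both is not stated. No input library was used here. The deposited methylation values are the methylated fraction per 100 bp from BS-Seeker2 on mm9, without coverage, so their depth is unknown. The deposited FPKM table was made by the authors from total RNA with cutadapt 1.11, TopHat2 2.1.1 and Cufflinks 2.1.1. Single-cell files were not used.

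Values were averaged over 1-kb bins with Python 3.11.15, numpy 2.4.6 and pandas 2.3.3. Bin methylation is the mean of the listed windows. Gene positions and sequence came from GENCODE vM1 on NCBIM37, which is mm9, and 18326 of 21150 genes matched the FPKM table (1293 by an older symbol). A bin was called mostly repeated when at least 50% of 25 words of 31 bases, taken every 40 bases, occurred more than once in the genome. For this, 1 in 10 bins with H3K4me3 only, 1 in 4 with H3K27me3 only and 1 in 500 low in both were sampled. FPKM were compared with limma 3.58.1 (trend option, R 4.3.3) on log2(FPKM + 1) in 1 fit of mESCs, EpiLCs, EpiSCs and the 7 long-term fPSC libraries. Depth is known for the ChIP-seq files only, from their smallest step.

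The bins, gene lists and families were chosen with earlier results of these data known. Named genes were every gene of the lineage, formative, naïve and primed lists; per comparison the 5 largest rises and falls among called genes with both marks, without overlap of the 2 groups and with a mean of 5 FPKM or more in 1; the 5 highest in fPSCs; the 10 longest runs; and the 10 bins with the highest smaller mark. Psmb8, Olfr94, Dll1, Dll4, Neurog1, Hand2 and Hoxc12 were named after their values were seen. Same-numbered libraries of mESCs, EpiLCs and EpiSCs do not deviate together (r of 0.208, -0.203 and -0.138 between groups), so the numbers were not taken as pairs. Alternatives were other thresholds, bin offsets, filters, scalings, pseudocounts and libraries left out. A few listed genes and 1 region are not reported here.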

Additional observations from a re-analysis of the deposited data

Results flagged for a closer look

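Of 40 named genes with both marks, 11 had 1 of the 7 fPSC libraries apart from the other 6 by Dixon's 95% criterion on FPKM. Chance alone meets it in about 1 in 20 groups of independent, normally distributed values. FPKM need not be so distributed and the genes share the 7 libraries, so that rate is not the one here. Named genes without both marks were not examined in this way. In 10 of the 11 the library that stood apart was 46C at P24, and always as the highest. Regulators of mesendoderm and of the organizer were among them: Lhx1 had 86.5 FPKM there against 1.32 to 13.6 in the others, Sox17 50.6 against 0.265 to 13.1 and Gata4 9.10 against 0.319 to 2.63. Signalling genes followed the same pattern, with Cyp26a1 at 96.4 FPKM against 1.67 to 20.2, Sfrp1, a secreted Wnt antagonist, at 58.3 against 3.26 to 10.8, and Thpo at 11.8 against 2.99 to 6.44.

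The 46C library was also highest for Mlf1 (16.4 FPKM against 2.70 to 8.54), Slc25a24 (4.60 against 2.00 to 2.99), Grin1 (1.61 against 0.0206 to 0.416) and Pdx1 (0.156 against 0 to 0.0400). For Neurog2 the BVSC library at P14 stood apart, with 0.0553 FPKM against 0 to 0.00142, both very low. Without 46C, 169 genes with both marks were called in fPSCs against mESCs and 180 in EpiSCs against fPSCs, so these counts did not rest on that library. What sets 46C apart was not tested.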

How the results depend on the processing

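The number of bins with both marks was set by the threshold: 15423 at 1.5 RPKM, 9213 at 2, 3865 at 3 and 1395 at 4, and 6132 when the median of the 10 windows replaced the mean. Their median methylation of 0.229 became 0.395, 0.103, 0.0783 and 0.138 in that order (1.5, 3 and 4 RPKM, and the median), 0.206 where at least 5 windows were listed for both marks, 0.17 with at least 5 methylation windows and 0.200 without mostly repeated bins. The share with a gene start, 9.31%, became 7.61% at 3 RPKM, 5.52% at 4, 9.94% without bins with a run of 8 or more G or C, and 15.1% with the starts of all transcripts. Bins shifted by part of their length or with values over 100 kept stayed close to the values reported (9082 and 9305 bins, median methylation 0.233 for both).

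Calls among genes with both marks at the start depended on the gene set and on single libraries. With starts within 1 kb of a bin with both marks, 1015 genes passed the filter. In fPSCs against mESCs 545 were called (53.7%, against 40.3% of all tested genes). There were 524 in EpiSCs against fPSCs (51.6%, against 32.3%) and 652 in EpiSCs against mESCs (64.2%, against 47.8%). With 4 RPKM on both marks 26 genes passed, and in the same order 11 (42.3%), 10 (38.5%) and 11 (42.3%) were called. Leaving out 1 mESC or EpiSC library, where the remaining library is assumed to vary like the other groups, gave 98 to 109, 88 to 102 and 137 to 164. Other scalings, pseudocounts and the fPSC libraries of either deposit moved no total by more than 1.5 times, but the 12 genes lower in EpiSCs than in fPSCs became 21 with a pseudocount of 0.1 and 21 with the second deposit. With the replicate number as a block, EpiSCs against mESCs had 217 calls, as many as the same 3 groups without a replicate block. With the numbers crossed it had 221, an alternative chosen after seeing the data, like those on G or C runs, repeated words and the 46C library. Of 250 values for named genes under the alternatives, 242 kept direction and side of the threshold, 8 kept direction only (Cyp26a1, Lhx1, Mixl1 and Thpo without 1 mESC or EpiSC library) and 0 reversed. The 250 leave out the cases in which a gene no longer passed the filter. These were Aqp3, Tbx3 and Notum when either mESC library was left out. The same held for Col1a1, Wnt7b and Hand1 when either EpiSC library was left out. The ChIP-seq and methylation files used give no spread between replicates, and the methylation values have no coverage, which limits both to description.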

Other observations

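Several genes with both marks in fPSCs, lineage regulators among them, had far more RNA in the day 4 Epiblastoids than on day 3. Day 4 is a group with 1 library and so has no spread. Mixl1 had 254 FPKM there, Lhx1 121, Cyp26a1 100.97, Mesp1, a factor of early mesoderm, 74.7, Sox17 68.7 and Foxa2 52.8. On day 3 the same 6 genes had 1.65, 0.0143, 0.341, 0, 0.145 and 0.558 FPKM. Hand1 had 16.1 FPKM on day 4, Gata4 10.998 and Msx2 8.07. Day 4 was not the highest for every lineage regulator with both marks. Foxa2 had 81.9 FPKM in the 46C fPSC library, and Cdx2 had 0.146 on day 4 against 1.66 and 2.196 in EpiSCs. In the fPSCs derived from E5.5 and E6.5 epiblasts, Foxa2 had 68.0 and 58.8 FPKM, Mixl1 43.1 and 44.5 and Lhx1 18.9 and 23.3, which for Mixl1 is above all 7 long-term fPSC libraries.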
